A study of Mus musculus with 4 samples.

Results

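The genes described here encode the secreted proteins of the TGF-beta pathway, their receptors, members of the latent TGF-beta binding protein family, and a pair of transcripts that TGF-beta is known to induce. They are Tgfb1, Tgfb2, Tgfb3, Tgfbr1, Tgfbr2, Tgfbr3, Ltbp1, Ltbp2, Smad7 and Tgfbi. A probe set, the group of short array probes that together give 1 value for a transcript, was taken when the platform annotation assigned it to 1 of these genes alone. This gave 25 probe sets of 10 genes, among 45037 probe sets tested on the array, and 0 further probe sets listed a member together with another gene.

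RNA came from tumour epithelial cells of chemically induced mouse skin squamous cell carcinomas, sorted on the epithelial surface protein Epcam after cells bearing CD45 (leukocytes), CD31 (endothelium) or CD140a (mesenchyme) had been gated out. The cells were divided by a Sox2-GFP reporter into Sox2-GFP-positive (2 arrays) and Sox2-GFP-negative (2 arrays, the control), and both populations came from malignant tumours. According to the series text, 2 tumours of 2 mice supplied them. Each sample was hybridised to 1 whole-genome Affymetrix array, and the deposited values are on a log2 scale. The sources used here do not give the carcinogen, the mouse strain, the age or how the reporter was built, and with 2 arrays a group the number of arrays limits the precision.

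TGF-beta is secreted bound to its own propeptide, and most of it is held in the extracellular matrix by a latent TGF-beta binding protein until integrins or proteases release it. The free ligand brings together the type II receptor and the type I receptor kinase, which phosphorylates Smad2 and Smad3 to enter the nucleus with Smad4. In skin the pathway restrains the division of keratinocytes, while in carcinomas it is also known for invasion at the tumour front.

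The brightest probe sets of Tgfb1, Ltbp1, Smad7 and Tgfbi read higher in both Sox2-GFP-positive arrays than in either negative array, by 1.40-fold to 2.93-fold, and those of Ltbp2 and Tgfbr3 read lower, by 4.02-fold and 2.46-fold. None of the 25 member probe sets passed limma's test (adjusted p = 0.243 to 0.944), nor did any of the 45037 tested (0% called, lowest adjusted p = 0.226). At an unadjusted p under 0.05, 5 member probe sets were higher and 1 was lower, beside 7.44% and 6.61% of all probe sets. Both positive arrays lay above both negative arrays in 11 of the 25, beside 29.7% of all probe sets, and below in 3, beside 18.4%, while 11 overlapped. Several of the 11 above belong to the same gene. By the brightest probe set of each gene, 4 of the 10 lay above and 2 below, beside 35.5% and 14% of 18193 genes. The median difference, positive minus negative, was 0.44 over the 25 and 0.07 over all probe sets on the log2 scale. By brightest probe set it was 0.43 over the 10 genes and 0.14 over all genes. Shifting the arrays to equal levels of the spiked-in control transcripts (spike-in scaling) added 0.79 to every difference, which moved the median of all probe sets to 0.86. It moved the split of the 25 to 19 above and 1 below, beside 80.1% and 2.04% of all. Directions are therefore those of the deposited values, and they can change with the scaling of the arrays. Ltbp2 and Tgfbr3 kept values below 0 under spike-in scaling too. Every value below is a description of these 4 arrays. P-values measure only the spread between arrays within a group, and adjusted p values are limma's, corrected over all 45037 probe sets with Benjamini-Hochberg.

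**Figure D1:**
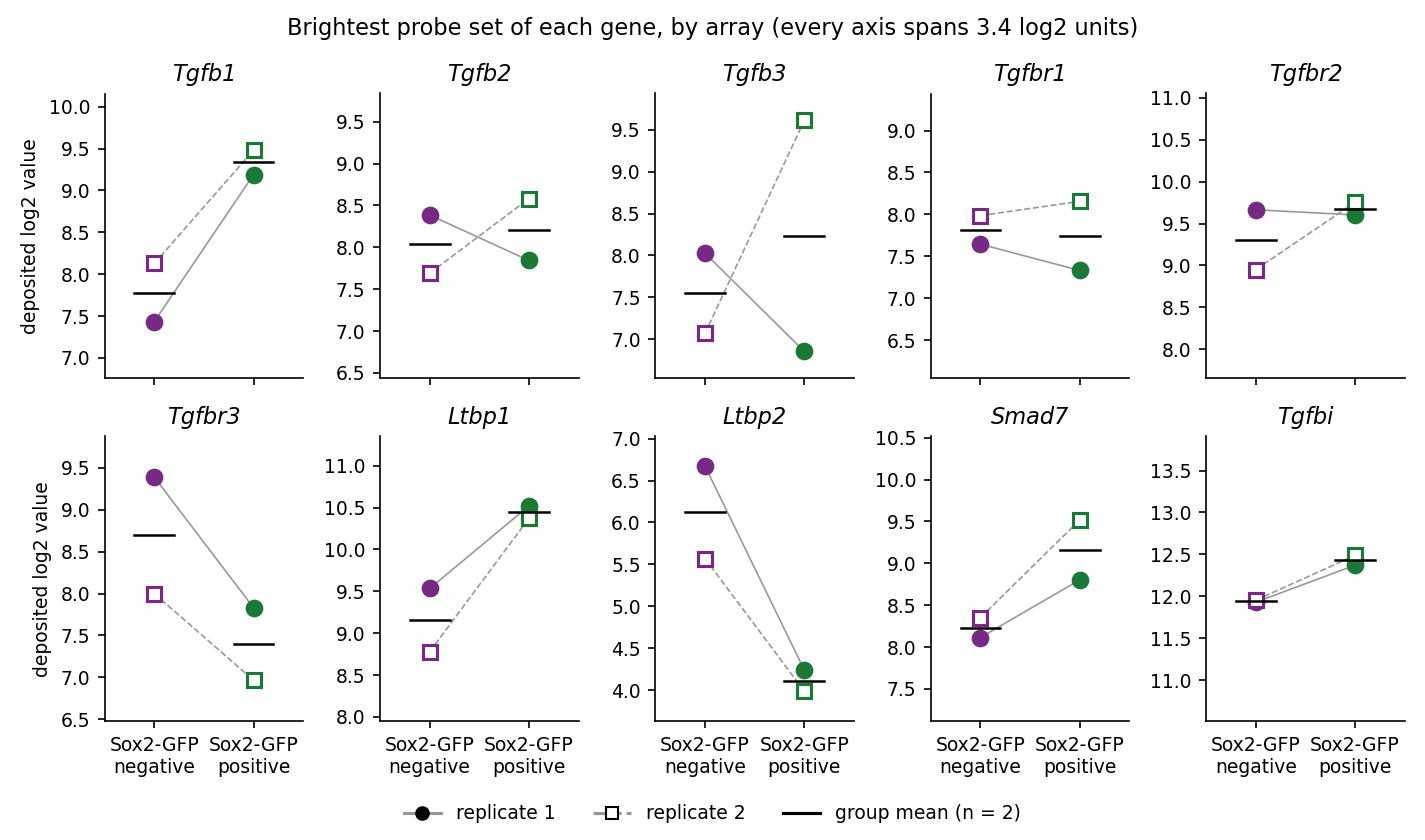
Deposited log2 values of the brightest probe set of each of the 10 genes, in Sox2-GFP-negative (purple) and Sox2-GFP-positive (green) arrays; black bars are group means (n = 2), grey lines join arrays of the same replicate number, and every axis spans the same width in log2 units. Tgfb1, Ltbp1, Smad7 and Tgfbi lie above the negative arrays in both positive arrays, Ltbp2 and Tgfbr3 lie below, and Tgfb2 and Tgfb3 cross.

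RefSeq promoters (GRCm38.p6, 250 bases before to 50 after the start, 5′ to 3′ on the gene's strand) were found for 7 of the 10 genes. Those of Tgfb1, Tgfb2, Ltbp1 and Ltbp2 are shown because they set the ligand that stood above the negative cells beside one that did not, and the related binding proteins that stood on opposite sides. Capitals mark matches on either strand to the CAGA box CAGACA, a short SMAD-binding sequence, and to the GC box GGGCGG, the site of Sp1-type factors.
Tgfb1, chr7:25686752-25687051, plus strand: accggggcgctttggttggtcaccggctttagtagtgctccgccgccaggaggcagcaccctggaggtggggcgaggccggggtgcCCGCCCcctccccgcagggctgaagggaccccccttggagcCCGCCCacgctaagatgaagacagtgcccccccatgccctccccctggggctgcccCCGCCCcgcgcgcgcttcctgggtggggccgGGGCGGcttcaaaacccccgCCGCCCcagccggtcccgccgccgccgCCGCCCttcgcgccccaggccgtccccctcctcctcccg
Tgfb2, chr1:186705940-186706239, minus strand: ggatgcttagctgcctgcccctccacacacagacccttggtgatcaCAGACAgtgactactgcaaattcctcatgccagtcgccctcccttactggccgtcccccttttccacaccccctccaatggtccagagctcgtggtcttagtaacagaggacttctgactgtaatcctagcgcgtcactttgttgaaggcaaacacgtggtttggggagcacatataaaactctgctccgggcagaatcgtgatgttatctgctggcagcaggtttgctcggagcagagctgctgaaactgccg
Ltbp1, chr17:75005279-75005578, plus strand: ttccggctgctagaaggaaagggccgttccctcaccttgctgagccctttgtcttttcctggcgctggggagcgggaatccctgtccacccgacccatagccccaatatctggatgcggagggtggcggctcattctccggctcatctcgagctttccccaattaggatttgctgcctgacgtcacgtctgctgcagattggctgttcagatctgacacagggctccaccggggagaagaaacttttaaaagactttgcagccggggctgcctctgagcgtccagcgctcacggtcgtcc
Ltbp1 second start, chr17:75178531-75178830, plus strand: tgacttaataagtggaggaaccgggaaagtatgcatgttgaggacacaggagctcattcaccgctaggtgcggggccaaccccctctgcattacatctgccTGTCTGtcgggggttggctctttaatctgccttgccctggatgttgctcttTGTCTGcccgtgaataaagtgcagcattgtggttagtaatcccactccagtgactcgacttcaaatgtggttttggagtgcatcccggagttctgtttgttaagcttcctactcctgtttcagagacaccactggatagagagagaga
Ltbp2, chr12:84876442-84876741, minus strand: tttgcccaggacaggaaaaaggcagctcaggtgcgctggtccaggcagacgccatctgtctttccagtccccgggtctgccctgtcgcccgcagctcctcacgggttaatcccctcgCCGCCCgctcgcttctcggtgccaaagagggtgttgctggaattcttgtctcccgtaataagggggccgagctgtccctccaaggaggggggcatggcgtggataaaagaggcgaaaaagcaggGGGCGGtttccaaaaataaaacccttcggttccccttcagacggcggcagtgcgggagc
The Tgfb1 window held 6 GC boxes and no CAGA box, with 77% G and C against a median of 52.7% over all 32851 promoters. Tgfb2 held 1 CAGA box and Ltbp1 held 2 at its second start, while Ltbp2 held 2 GC boxes. A CAGA box was present in 21% of all promoters, and a GC box in 35.7%. Of the other motifs searched, the palindromic SMAD box GTCTAGAC (0.213% of all promoters) and the AP-1 element TGANTCA (7.81%) had 0 matches in these 5 windows, and no matches of different motifs overlapped. The matches describe letters in a window; which start each cell used was not measured.

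Of the 3 ligands, Tgfb1 read higher in positive cells in both replicate numbers on its brightest probe set, while Tgfb2 and Tgfb3 did so in 1 of them. Tgfb1 is the most widely expressed isoform. Its brightest probe set (1420653_at) read 9.19 and 9.48 in positive cells against 7.43 and 8.13 in negative cells. The groups did not overlap, and the nearest arrays were 1.06 log2 units apart. The difference was 1.55 ± 0.30 (SE, n = 2 a group), or 2.93-fold higher in positive cells (unadjusted p = 0.00468, adjusted p = 0.243 by limma). It was 1.75 in the pair numbered replicate 1 and 1.35 in the pair numbered replicate 2.

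A second Tgfb1 probe set (1445360_at) did not show this. It read 5.66 and 7.65 in positive cells against 6.08 and 6.88 in negative cells, so that the positive arrays enclosed the negative ones. Its difference was 0.18 ± 0.73 (SE, n = 2 a group; adjusted p = 0.936 in limma), with a 95% interval of -1.77 to 2.12. The annotation gives this probe set a different accession from the brighter one, and the sources used here do not say which Tgfb1 transcripts each detects.

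Tgfb3, the isoform linked to migration and wound closure, differed most between the replicate numbers. It read 6.85 and 9.61 in positive cells against 8.03 and 7.07 in negative cells, so positive replicate 2 was the highest of the 4 and positive replicate 1 the lowest. In the replicate 1 pair positive cells read 2.25-fold lower, and in the replicate 2 pair 5.82-fold higher. The mean difference of 0.68 ± 0.98 (SE, n = 2 a group; adjusted p = 0.784 in limma) averaged these opposite values, and without positive replicate 2 it was -0.69.

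Tgfb2, which is prominent in embryonic tissues and in hair follicle development, followed the same course in 3 of its 4 probe sets. The brightest (1450923_at) read 7.84 and 8.58 in positive cells against 8.38 and 7.69 in negative cells. Positive cells lay below negative cells in replicate 1 (-0.54) and above in replicate 2 (0.89). The pair annotated to the same accession, 1450922_a_at and 1423250_a_at, gave -0.40 and 1.5, and -0.26 and 1.37. The fourth, 1438303_at, read 6.43 and 7.17 in positive cells against 6.05 and 6.09 in negative cells, with a difference of 0.73 ± 0.30 (SE, n = 2 a group; adjusted p = 0.379 in limma). Probe sets of 1 gene read the same RNA on the same arrays, so their agreement is not independent evidence.

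Opposite signs between the replicate numbers were found in 10 of the 25 member probe sets, beside 37.3% of all probe sets, a share close to the background. The replicate numbers differed by at least 1 log2 unit in 5 of the 25, beside 11.8% of all. These 5 were the Tgfb3 probe set, 3 of Tgfb2 and the dimmer one of Tgfb1, and so all read ligands. No label says that a replicate number marks a tumour, and with 1 array of each kind the difference between replicate numbers has no test.

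**Figure D2:**
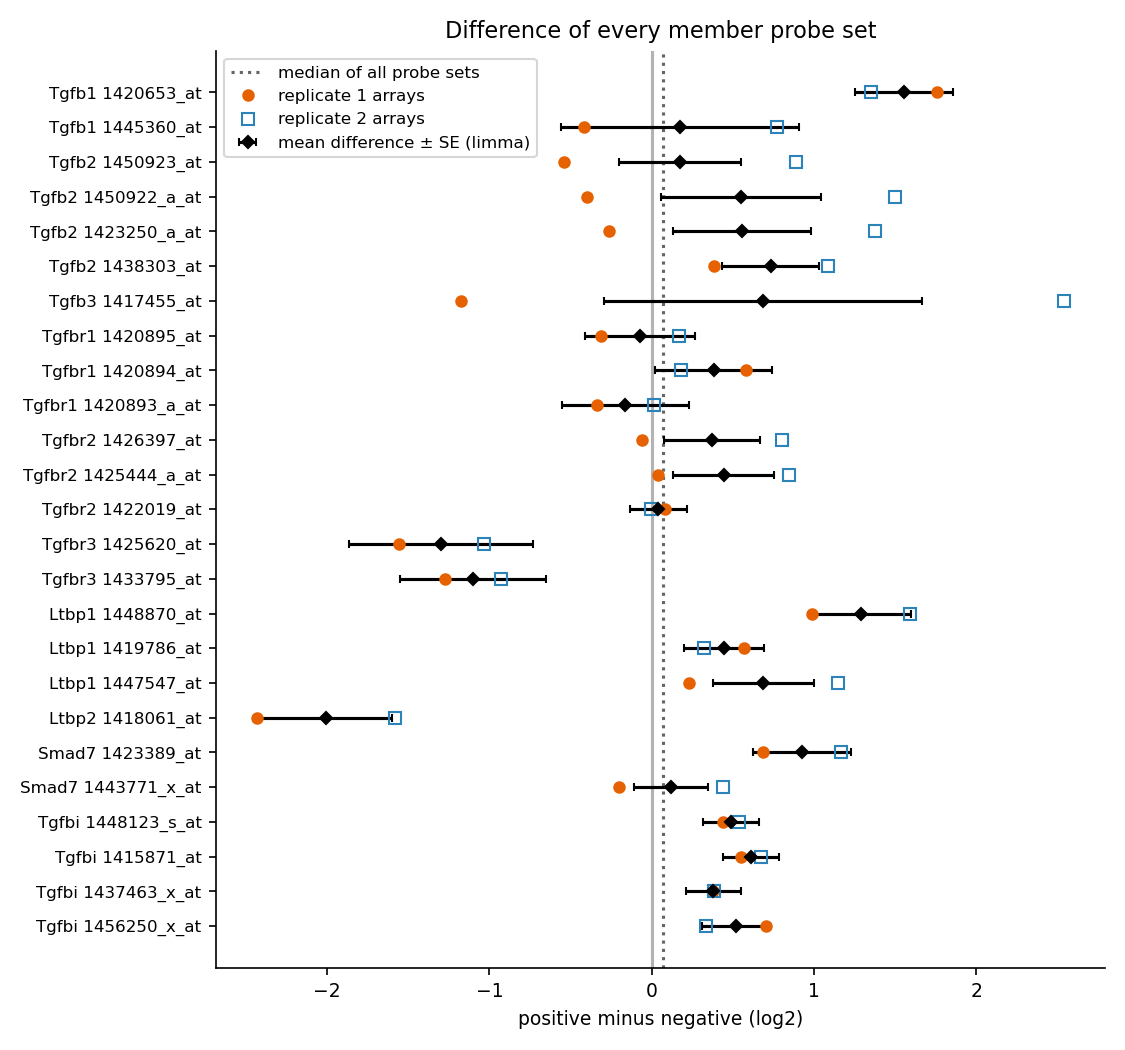
Positive minus negative difference on the log2 scale for all 25 member probe sets; diamonds with bars are the limma mean difference ± SE (n = 2 a group), circles and squares the differences between arrays numbered replicate 1 and replicate 2, and the dotted line the median of all probe sets (0.07). Tgfb3 and 3 Tgfb2 probe sets have their replicate values on either side of 0, whereas those of Tgfbi lie close together.

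The signalling receptors showed no separation of the groups beyond 0.04 log2 units. Tgfbr1, the type I kinase, read 7.33 and 8.16 in positive cells against 7.64 and 7.99 in negative cells on its brightest probe set (1420895_at). The positive arrays again enclosed the negative ones. The difference was -0.07 ± 0.34 (SE, n = 2 a group; adjusted p = 0.944 in limma), and its 95% interval of -0.97 to 0.83 leaves room for changes of nearly 1 log2 unit either way. The other Tgfbr1 probe sets gave 0.38 and -0.16, and the sign of this gene differed between scalings of the arrays.

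Tgfbr2, the type II receptor that binds the ligand first, read 9.60 and 9.75 in positive cells against 9.66 and 8.95 in negative cells (1426397_at). Only negative replicate 2 stood lower. The difference was 0.37 ± 0.29 (SE, n = 2 a group; adjusted p = 0.611 in limma; 95% interval -0.41 to 1.15). The second probe set, 1425444_a_at, had the same low array, at 7.64 against 8.43 to 8.49 in the others. A further one, 1422019_at, read 3.0 to 3.13 on all arrays, below their 5th percentiles (3.34 to 3.37), and so carries no information on the level.

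Tgfbr3, or betaglycan, is the co-receptor that presents ligand, Tgfb2 above all, to the type II receptor. Its brightest probe set (1425620_at) read 7.83 and 6.97 in positive cells against 9.39 and 8.0 in negative cells. The groups did not overlap, but positive replicate 1 and negative replicate 2 were 0.17 log2 units apart. Positive cells read 2.46-fold lower (-1.30 ± 0.57 SE, n = 2 a group; adjusted p = 0.403 in limma), with -1.56 in the replicate 1 pair and -1.03 in the replicate 2 pair. The second probe set, 1433795_at, gave -1.10 ± 0.45 (limma adjusted p = 0.380). Without negative replicate 1 the difference of the brightest probe set was -0.60.

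Ltbp1 and Ltbp2, related proteins of the latent TGF-beta binding protein family, lay on opposite sides. Ltbp1, which tethers latent TGF-beta to the matrix, read 10.52 and 10.37 in positive cells against 9.53 and 8.78 in negative cells (1448870_at). Both positive arrays were at least 0.84 log2 units above both negative arrays. The difference was 1.29 ± 0.31 (SE, n = 2 a group; adjusted p = 0.258 in limma), or 2.44-fold, with 0.99 in replicate 1 and 1.59 in replicate 2. The dimmer Ltbp1 probe sets had the same sign, at 0.44 ± 0.25 (1419786_at) and 0.69 ± 0.31 (1447547_at), but their means lay below 5.55, the median over all probe sets.

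Ltbp2, a matrix protein of elastic fibres that, unlike Ltbp1, does not bind latent TGF-beta, had the largest difference of the 25 probe sets. It read 4.24 and 3.99 in positive cells against 6.67 and 5.57 in negative cells (1418061_at). The nearest arrays of the groups were 1.33 log2 units apart. Positive cells read 4.02-fold lower (-2.01 ± 0.41 SE, n = 2 a group, unadjusted p = 0.00579, limma adjusted p = 0.247), by 5.40-fold in replicate 1 and 3.0-fold in replicate 2. The positive values lay at or below the lower quartiles of their arrays (4.25 and 4.19), and no detection calls were used, so the fold bounds the difference from below.

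Smad7 and Tgfbi are induced by TGF-beta in many cell types, the first as an inhibitor that blocks the type I receptor and the second as a secreted matrix protein that binds integrins. Smad7 read 8.80 and 9.52 in positive cells against 8.11 and 8.35 in negative cells (1423389_at). The groups did not overlap. The difference was 0.93 ± 0.30 (SE, n = 2 a group; adjusted p = 0.318 in limma), a 1.90-fold excess in positive cells. The other Smad7 probe set, 1443771_x_at, read 4.93 to 5.37 on all arrays with overlapping groups (0.12 ± 0.23); the _x_ in its name marks probes that may also match other sequences.

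Tgfbi was bright on every array. On 1448123_s_at it read 12.37 and 12.49 in positive cells against 11.93 and 11.95 in negative cells, and on 1415871_at 12.28 and 12.37 against 11.73 and 11.70. The difference was 0.49 ± 0.17 on the first and 0.61 ± 0.17 on the second (SE, n = 2 a group; adjusted p = 0.340 in limma and 0.283), or 1.40-fold and 1.53-fold. The other 2 probe sets gave 0.38 and 0.52. All 4 were higher in both positive arrays than in either negative one, and they read the same transcript on the same arrays, so that they count as 1 gene.

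Levels of markers of other cell types are given here beside these results. The keratinocyte markers showed epithelial cells on all arrays. Of 11 markers 11 were measured, and none lay at or below the 5th percentile on all arrays. Their mean log2 values were 11.93 and 12.11 in positive and 11.98 and 12.12 in negative arrays. Single markers differed both ways, with 5 above, 5 below and 1 overlapping, beside 35.5% of all genes above and 14% below. Of 14 fibroblast and pericyte markers, 14 lay lower in both positive arrays than in either negative array, beside 14% of all genes. Their mean values were 8.27 and 6.01 in positive and 10.64 and 8.96 in negative arrays. Their summed intensities were 17592 and 2217 in positive and 54240 and 25027 in negative arrays, and none of them was at the floor throughout. The mean values of the endothelial markers were 6.17 and 5.40 against 7.33 and 5.92, and those of the immune markers 5.73 and 5.23 against 6.38 and 5.62. Of 10 endothelial markers 9 overlapped between the groups and 1 lay below. Of 10 immune markers 7 overlapped, 1 lay above and 2 below. The shares of all genes were 35.5% above and 14% below. Pigment and Schwann cell markers, of which 6 of 8 were measured, had mean values of 5.45 and 4.87 against 6.63 and 6.19. Of these 6, 4 lay lower in both positive arrays than in either negative array and 2 overlapped. Of the sort markers, Epcam read 10.75 to 11.80 over the arrays, and negative replicate 1 was the highest array for Pecam1, which encodes CD31 (8.44), and for Pdgfra, which encodes CD140a (7.83). The probe sets of Ptprc, which encodes CD45, disagreed on that array, at 4.97 and 6.40. Sox2 itself could not be read, at 3.14 to 3.50 on all arrays.

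Ltbp2 and Tgfbr3 are also made by fibroblasts, and on all their probe sets they ranked over the 4 arrays in the same order as the fibroblast mean. On their brightest probe sets Tgfb1, Smad7 and Tgfbi ranked in the reverse order, which the other probe sets of Tgfb1, Smad7 and Tgfbi did not keep, and Ltbp1 ranked in neither. In a sorted population, fewer cells of a type and less RNA per cell cannot be told apart. The arrays of different groups closest in fibroblast mean were positive replicate 1 and negative replicate 2, 0.69 log2 units apart, a pair chosen after the values were seen. Between them Tgfbr3 differed by -0.17 and Ltbp2 by -1.33. Tgfb1, Ltbp1, Smad7 and Tgfbi differed by 1.06, 1.74, 0.45 and 0.42 in the same pair, with the positive array higher. The part of fibroblast RNA in these differences was not tested.

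**Figure D3:**
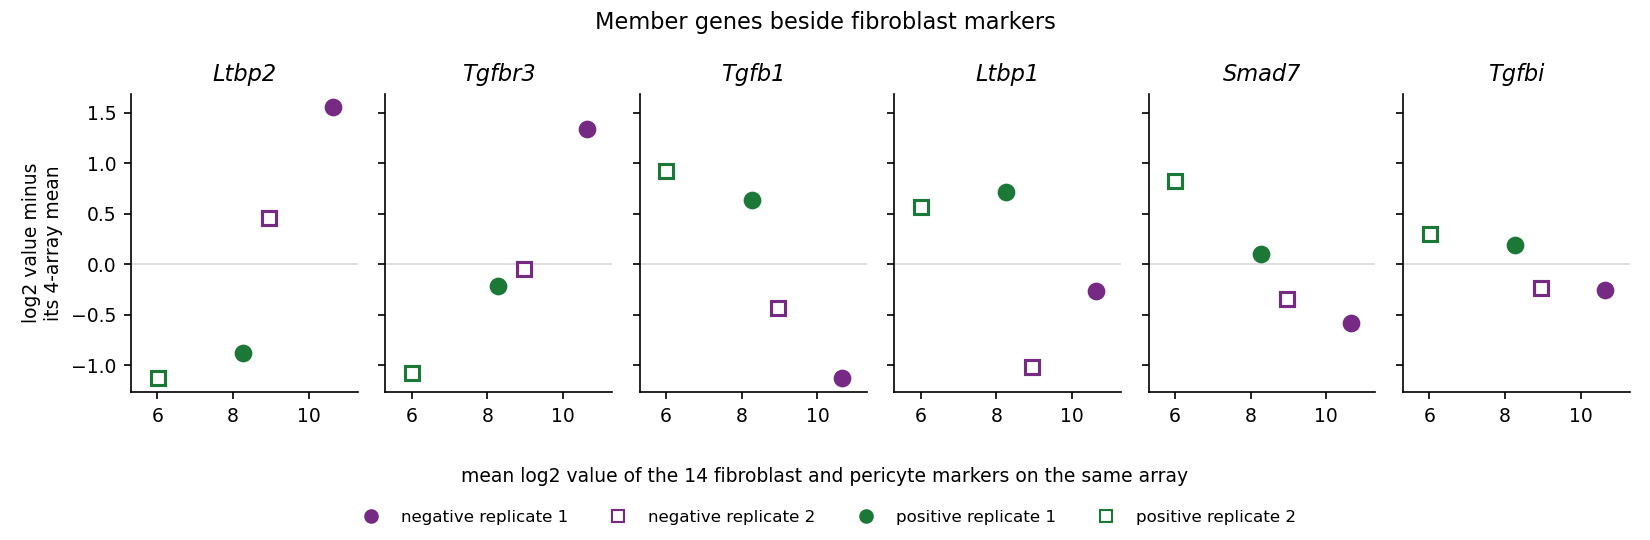
Each point is 1 array; the horizontal axis is the mean log2 value of the 14 fibroblast and pericyte markers, and the vertical axis the log2 value of the gene minus its 4-array mean (purple negative, green positive; filled replicate 1, open replicate 2). Ltbp2 and Tgfbr3 are highest on negative replicate 1, where the markers average 10.64, while Tgfb1, Smad7 and Tgfbi are lowest there and Ltbp1 is lowest on negative replicate 2.

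The rest of the pathway was read from 4 lists of other genes, each gene by its brightest probe set. Of 66 distinct genes 61 were measured, and none of them passed limma's test. Both positive arrays lay above both negative arrays in 5 and below in 21, beside 35.5% and 14% of 18193 genes. Spike-in scaling changed that split to 34 above and 6 below, beside 80.1% and 2.04% of all probe sets under the same scaling. The median difference was -0.09 over the 61 and 0.14 over all genes. At an unadjusted p under 0.05 in limma, 2 were higher and 9 lower. The shares of all probe sets, dim ones included, were 7.44% and 6.61%, and the shares over genes were not computed. With the replicate number as a block and 1 probe set per gene, limma called 0 of the 10 members and 7 of the 61, all lower, beside 0.0715% of all genes higher and 0.868% lower. That setting was added after the data were seen, and a block leaves 1 residual degree of freedom. The planned block over all probe sets called 0. The lists hold Dcn and Col1a1, which are also fibroblast markers, and several other matrix genes.

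Among genes that hold or release latent TGF-beta, 6 of 14 measured lay below the negative arrays and 1 above (median -0.11). Of all genes 14% lay below and 35.5% above. The smallest p was that of Itgb8, the integrin chain that pairs with Itgav to activate latent ligand. Itgb8 read 3.44 and 4.32 in positive cells against 6.55 and 7.20 in negative cells (-2.99 ± 0.40 SE, n = 2 a group; adjusted p = 0.226 in limma). It was 7.97-fold lower, with -3.11 in replicate 1 and -2.88 in replicate 2. Positive replicate 1 lay near the 5th percentile of its array (3.37), so low signal may compress this fold too. Negative replicate 2 was the highest array and positive replicate 1 the lowest, and the part of fibroblast RNA in this difference was not tested. Thbs1, a secreted activator of latent ligand, read 10.61 and 10.65 against 11.70 and 11.48 (limma adjusted p = 0.243). Mmp2, a gelatinase of stromal cells, read 8.04 and 6.18 against 10.70 and 9.08 (-2.78 ± 0.83, limma adjusted p = 0.298), and Tgm2, a cross-linking transglutaminase, gave -1.32 ± 0.49 (limma adjusted p = 0.349). Lrrc32 and Fbn1 were not analysed here.

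Of the 13 measured genes of co-receptors and the related activin pathway, 3 lay below and none above (median -0.23). The shares of all genes were 14% below and 35.5% above. Cd109, a membrane-anchored co-receptor that dampens TGF-beta signalling in keratinocytes, read 7.35 and 7.05 in positive cells against 8.36 and 8.71 in negative cells. It was 2.53-fold lower (-1.34 ± 0.23 SE, n = 2 a group; adjusted p = 0.233 in limma), and its groups did not overlap. Acvr1b and Acvr2a, a type I and a type II activin receptor, gave -1.09 ± 0.27 and -0.74 ± 0.29 (limma adjusted p = 0.262 and 0.370). Eng, the endothelial co-receptor endoglin, read 6.96 and 6.15 against 8.45 and 6.92 with overlapping groups. Gdf15 was not analysed here.

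Among the SMAD proteins and their regulators most genes overlapped. Of 16 genes 13 overlapped between the groups, 1 lay above and 2 below, beside 35.5% and 14% of all genes. Their median was 0.05. Smad2, Smad3 and Smad4, which carry the signal to the nucleus, differed by -0.08, -0.33 and 0.11. Skil, a transcriptional repressor bound to SMADs, gave -0.57 ± 0.28 (limma adjusted p = 0.437), and Nedd4l, a ubiquitin ligase for activated SMADs, -1.23 ± 0.89 (limma adjusted p = 0.580) with overlapping groups. Zfyve9, the adaptor also called SARA, and Usp15, a deubiquitinase of the receptor, gave 0.19 and 0.25.

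Genes known to respond to TGF-beta did not follow Smad7 and Tgfbi as a group. Of 22 measured, 3 were higher in both positive arrays than in either negative array and 12 were lower, with a median of -0.41. Beside these, 35.5% of all genes were higher and 14% lower. The 12 include Myc and Id1, which TGF-beta is known to repress in epithelial cells and which gave -0.23 and -0.24. Cdkn2b, the cell cycle inhibitor p15, read 9.39 and 9.66 in positive cells against 8.77 and 8.74 in negative cells (0.77 ± 0.19 SE, n = 2 a group; adjusted p = 0.267 in limma). Ccn2, a matricellular growth factor, read 6.62 and 4.64 against 9.99 and 7.87 (-3.30 ± 0.98, limma adjusted p = 0.294), and Col4a1, a basement membrane collagen, 8.78 and 7.5 against 11.93 and 9.95 (-2.80 ± 0.80, limma adjusted p = 0.285). On both of these genes, as on the fibroblast markers, negative replicate 1 was the highest array and positive replicate 2 the lowest. The same held for the other lower genes of this list except Thbs1 and Skil. The part of fibroblast RNA in these differences was not tested.

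**Figure D4:**
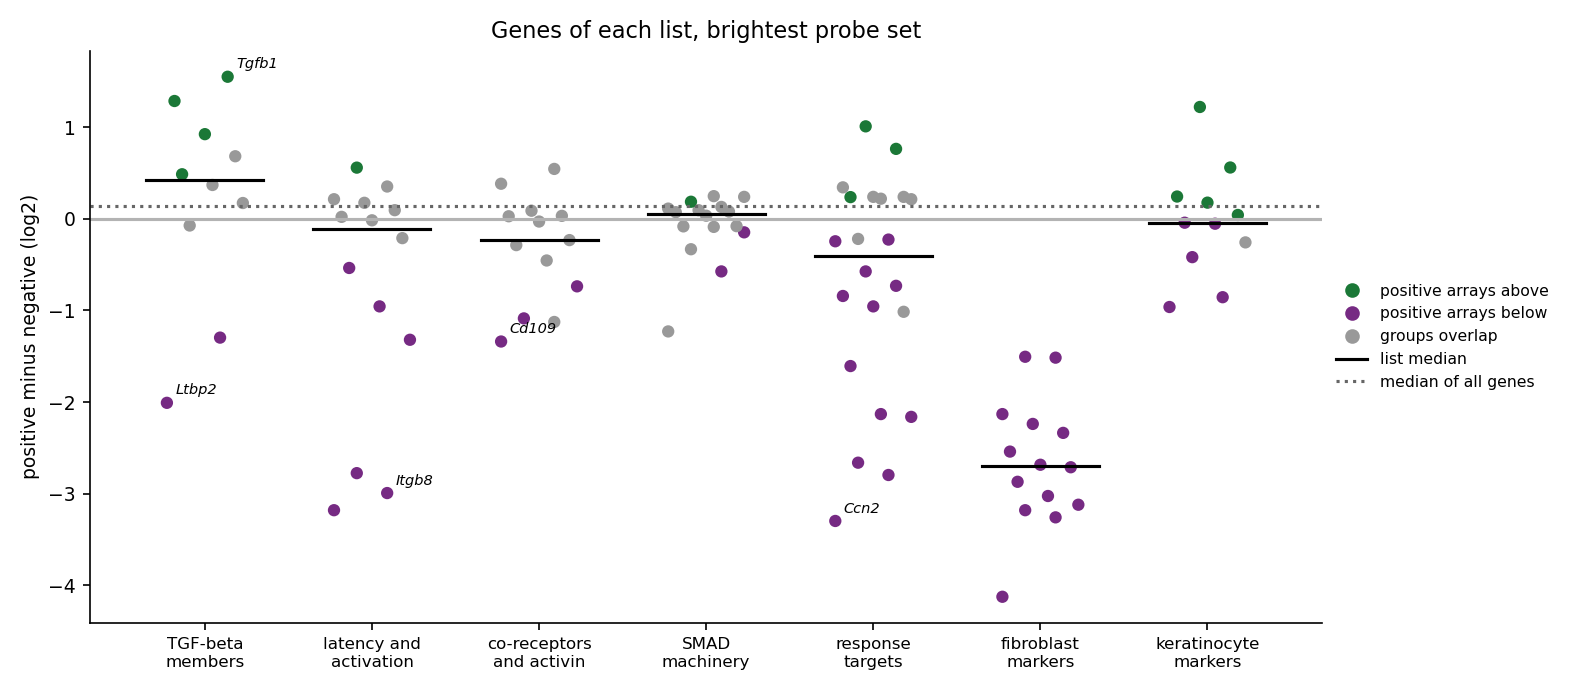
Positive minus negative log2 difference of each gene, by its brightest probe set, for the 10 members, the 4 lists of other pathway genes and 2 marker lists; green points have both positive arrays above both negative arrays, purple points have them below, grey points overlap, black bars are list medians and the dotted line the median of all genes (0.14). The member median is 0.43, the response targets have a median of -0.41, and all 14 fibroblast markers lie below 0.

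For the 4 members whose brightest probe set spanned at least 2 log2 units, the genes with the most similar profile were sought among 9088 brighter genes. Likeness was the root mean square distance between values centred on their own mean, over 4 arrays, and it is given with no test. Closest to Tgfb1 were Ppp5c, Ddias and Qsox2 (0.14, 0.15 and 0.16 log2 units, against a median distance of 0.77). Closest to Tgfb3 were Rflnb, Nuak1 and Gdpd3 (0.27 to 0.30, median 1.08). Closest to Tgfbr3 were Dnm1, Eng and Lgals3bp (each 0.10, median 0.97), and closest to Ltbp2 were Msrb3, Ptgds and Csf1 (0.07 to 0.17, median 1.18). With 4 arrays many genes share a profile.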

How the data were processed

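Per the labels' protocols, sorted cells were lysed, and total RNA was spiked with bacterial transcripts, amplified, biotin-labelled and hybridised to 4 arrays. The authors deposited log2 values for 45101 probe sets, between 2.73 and 14.36, whose scale was read from the values. R 2.14.0 is named in the submitters' processing notes; the sources used here do not give the background correction, normalization or probe set summary. Array medians were 5.49 to 5.60.

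The 64 control probe sets were left out. limma 3.58.1 (R 4.3.3; lmFit, eBayes) was fitted to the other 45037 with group as the only term (2 residual and 2.56 prior degrees of freedom), calling adjusted p under 0.05. It was also run on simulated data whose noise was capped at the median spread, which leaves noisier probe sets unchecked. Groups and replicate numbers came from sample titles. Of all probe sets 34945 had 1 gene symbol, covering 18193 genes.

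Members and lists were chosen with earlier results of these data known. Named genes were all members, the 4 smallest p-values of each pathway list, Sox2 and the sort markers, and the closest profiles; Smad2, Smad3, Smad4, Myc, Id1 and genes called with the block were named after their values were seen. Alternatives were a replicate block, quantile normalization, equal medians, spike-in scaling, a dimness filter, the brightest probe set per gene, trended and robust priors, adjusted p under 0.1, and leaving out each array. Blocks combined with quantile normalization or with the brightest probe set were added after seeing the data.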

Additional observations from a re-analysis of the deposited data

How the results depend on the processing

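With no replicate block, 0 member probe sets and 0 probe sets in all were called as deposited, after quantile normalization or equal medians, without dim probe sets, with the brightest probe set per gene, with either other prior, at adjusted p under 0.1 and without any 1 array. Tgfb1 (1420653_at), Ltbp1, Ltbp2, Tgfbr3, Smad7 (1423389_at) and Tgfbi kept their direction in every alternative run. Equal levels of the 24 poly-A control probe sets on every array (spike-in scaling) raised every difference by 0.79 and the median of all probe sets from 0.07 to 0.86. That scaling called 26711 of all 45037 probe sets higher and 315 lower. It called 15 of the 25 member probe sets and 21 of the 61 measured pathway genes. It put 19 member probe sets above and 1 below, beside 80.1% and 2.04% of all, and 34 pathway genes above and 6 below. The replicate number as a block called 0 probe sets (lowest adjusted p = 0.0974; 0.136 among members), and the same with quantile normalization. The replicate block with the brightest probe set per gene called 13 genes higher and 158 lower, no member (lowest adjusted p = 0.0568, Ltbp2) and 7 pathway genes, all lower: Itgb8, Mmp2, Dcn, Ccn2, Col4a1, Fn1 and Vim. Same-numbered arrays deviated together only weakly (r = 0.18 over all probe sets, 0.24 over the brighter ones), across features that are not independent replicates. With only the brightest probe set, 4 of the 10 members lay above and 2 below, beside 35.5% and 14% of all genes; fewer probe sets were counted. Leaving out 1 array gave 12 to 21 member probe sets above (21 without positive replicate 1) and 3 to 7 below (7 without positive replicate 2), beside 40.3% to 46.6% and 28.9% to 32.4% of all probe sets. It gave 11 to 22 pathway genes above and 24 to 36 below, since 3 arrays overlap less easily than 4. Signs turned for Tgfbr1, at 0.0096 (1420895_at) with equal medians and 0.72 and 0.63 (1420893_a_at) with spike-in scaling. Leaving out 1 array turned 9 probe sets, whose lowest and highest values were as follows. Tgfb1 1445360_at ran from -0.82 to 1.17, Tgfb2 1450923_at from -0.20 to 0.54, Tgfb2 1450922_a_at from -0.071 to 1.17 and Tgfb3 from -0.69 to 2.06, each lowest without positive replicate 2 and highest without positive replicate 1. Tgfbr1 ran from -0.48 to 0.34 (1420895_at) and from -0.61 to 0.29 (1420893_a_at) with the same arrays left out, and from -0.043 without negative replicate 1 to 0.81 without negative replicate 2 (1420894_at). Tgfbr2 1422019_at ran from -0.021 to 0.10 and Smad7 1443771_x_at from -0.077 to 0.31. The cause of these turns was not tested. Of the 25 member probe sets 5 had means below the array median, where signal over background limits a difference.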
